A study of Homo sapiens with 6 samples.

Results

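Genes of the matrix metalloproteinases (MMPs), of the ADAMTS proteases and of their inhibitors, the TIMPs, were examined in everolimus-resistant, ridaforolimus-resistant and parental MDA-MB-231 cells. The members were the protein-coding genes named MMP or ADAMTS with a number, without the ADAMTS-like genes, together with TIMP1 to TIMP4. They made up 46 of the 69292 gene IDs in the count table: 23 MMP, 19 ADAMTS and 4 TIMP genes. At least 10 counts in 2 libraries were reached by 25 members, among 21543 such genes in the table, and 24 of them also passed the filter of the test. ADAMTS10 passed the floor but was not tested.

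MDA-MB-231 is a human breast cancer cell line that lacks the estrogen and progesterone receptors and ERBB2 amplification, and the labels call it mesenchymal stem-like. The everolimus-resistant line (DR_EVE) was kept in 20 µM everolimus and the ridaforolimus-resistant line (DR_RIDA) in 30 µM ridaforolimus for several months, and parental cells (WT) had neither drug. For the parental libraries the labels disagree: the treatment field says DMSO, the protocol says no drug. Everolimus and ridaforolimus are both analogs of rapamycin and inhibit the mTOR kinase, and their doses differed. All 3 lines grew in the same serum-supplemented medium, and each group had 2 RNA sequencing libraries. Each resistant line is a single derivative, so resistance, presence of the drug and drift in culture cannot be told apart. Nothing in the labels says that the 2 libraries of a line came from separate cultures, so p-values measure only the spread between these libraries.

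MMPs are secreted or membrane-bound zinc proteases that are made as inactive precursors and, once activated, cleave collagens, other matrix proteins and cell surface proteins. ADAMTSs are secreted relatives whose ancillary domains, with thrombospondin repeats, direct them to particular substrates such as the proteoglycans versican and aggrecan or the N-propeptides of procollagens. TIMPs bind the active site of these proteases and block it, and in breast tumours the balance of the families is studied for its part in invasion.

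Library totals ranged from 13134567 to 15556246 counts. On the leading principal component of the 500 most variable genes (52.1% of their variance), both ridaforolimus libraries (28.7 and 32.2) lay apart from the other 4 (-17.4 to -11.1). Of 8 genes chosen as markers of mesenchymal breast cancer cells, VIM stood at 302 to 646 and AXL at 996 to 1558 CPM (counts scaled to a common library total). MSN ranged from 362 to 1616, CAV1 from 184 to 590, CD44 from 134 to 425 and CAV2 from 60.9 to 94.4 CPM. S100A4 was lower, at 5.26 to 18 CPM, and SPARC had no more than 14 counts in any library. Of 6 genes chosen as markers that triple-negative cells lack, PGR, TFF1 and ESR1 had at most 13 counts in any library, while FOXA1 had 43 to 104, GATA3 12 to 89 and ERBB2 611 to 952 counts (44.3 to 62.9 CPM). Some markers differed by line. In ridaforolimus-resistant over everolimus-resistant cells, the log2 fold change was 1.68 for MSN and -2.38 for GATA3. Both passed edgeR's quasi-likelihood test (adjusted p = 0.0403 each). Luminal epithelial markers summed to 531 and 670 CPM in everolimus-resistant, 487 and 525 CPM in ridaforolimus-resistant and 698 and 616 CPM in parental libraries, mostly from KRT8 and KRT18, with CDH1 at no more than 3 counts. The summed level of 9 fibroblast markers was 6.66 and 9.98 CPM in everolimus-resistant libraries, 8.46 and 16.9 CPM in ridaforolimus-resistant libraries and 10.8 and 12.4 CPM in parental libraries, with LUM at 0. That of 9 leukocyte markers was 6.81 and 4.3, 3.96 and 5.19, and 7.11 and 4.23 CPM in the same order of lines, with CD163 and CD3E at 0, and that of 6 endothelial markers 15.7 and 5.88, 6.4 and 12.8, and 17 and 11.8 CPM. In bulk RNA, fewer cells that express a gene and less of its RNA per cell cannot be told apart.

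Promoter windows are shown for the 3 members with the lowest p in ridaforolimus-resistant over parental cells that had a window in the RefSeq table, ADAMTS6, TIMP4 and ADAMTS3. Each runs from 250 bases before to 20 bases after the RefSeq start on the minus strand of GRCh38.p14. They lie at chr5:65481901-65482170 (ADAMTS6), chr4:72569202-72569471 (ADAMTS3) and chr3:12158893-12159162 (TIMP4). Capitals mark an E-box (CACGTG) and a cAMP response element (TGACGTCA) in ADAMTS6, and a GC box (GGGCGG or its reverse complement) in ADAMTS3 and TIMP4. The motifs and the window were chosen after these sequences had been read.

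ADAMTS6: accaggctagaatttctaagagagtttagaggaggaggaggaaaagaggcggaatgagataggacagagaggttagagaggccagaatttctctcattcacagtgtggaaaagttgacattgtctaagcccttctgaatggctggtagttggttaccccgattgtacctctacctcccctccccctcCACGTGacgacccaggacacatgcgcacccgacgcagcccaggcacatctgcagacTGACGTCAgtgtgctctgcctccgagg
ADAMTS3: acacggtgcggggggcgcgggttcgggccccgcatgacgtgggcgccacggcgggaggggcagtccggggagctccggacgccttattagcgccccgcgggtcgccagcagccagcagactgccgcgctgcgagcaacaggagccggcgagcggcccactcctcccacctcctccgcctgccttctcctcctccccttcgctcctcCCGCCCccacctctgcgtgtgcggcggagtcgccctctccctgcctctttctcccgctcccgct
TIMP4: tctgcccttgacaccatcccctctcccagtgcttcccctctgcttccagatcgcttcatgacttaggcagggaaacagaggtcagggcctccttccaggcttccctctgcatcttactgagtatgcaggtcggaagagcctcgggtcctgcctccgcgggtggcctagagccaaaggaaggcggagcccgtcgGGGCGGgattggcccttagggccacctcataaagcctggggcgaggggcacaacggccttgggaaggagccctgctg

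Matches were counted on both strands of the same windows. The cAMP response element was present in 2.59% of 15843 coding promoters and in 1 of the 27 members with a window, ADAMTS6, where it spans the start (positions -7 to 1). The E-box, at -63 to -58 in ADAMTS6, was present in 8.41% of coding promoters and in 3 members (ADAMTS6, ADAMTS17 and MMP21). The GC box was common, in 57% of coding promoters and in 19 members. The AP-1 motif TGANTCA, long studied in MMP promoters, was in 5.46% of coding promoters and in 4 members (ADAMTS12, MMP7, MMP10 and MMP20). TATAAA was in 9.42% of coding promoters and in 7 members. These are letter matches and say nothing of binding.

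Of the 21 members under the floor, 8 had no count in any library: ADAMTS5, MMP2, MMP8, MMP10, MMP12, MMP20, MMP26 and MMP27. MMP2 is gelatinase A, the classical target of activation by MMP14, and ADAMTS5 is a major aggrecan-cleaving protease. Another 10 had no more than 5 counts in any library: ADAMTS2, ADAMTS8, ADAMTS18, ADAMTS20, MMP1, MMP3, MMP7, MMP13, MMP28 and TIMP3. MMP1, the interstitial collagenase that MDA-MB-231 cells are known for secreting, had 1 and 0 counts in everolimus-resistant, 2 and 4 in ridaforolimus-resistant and 1 and 3 in parental libraries. The labels name the cell line, and its identity was not checked beyond the markers given here. TIMP3, the inhibitor with the widest reach over ADAMTSs, had 1 count in 1 parental library.

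The MMP family has a known cluster of neighbouring genes on chromosome 11, where MMP7, MMP20, MMP27, MMP8, MMP10, MMP1, MMP3, MMP12 and MMP13 lie between bases 102520508 and 102955734 of GRCh38. None of these 9 genes had more than 4 counts in any library, and 5 had none. The members nearest to the floor were ADAMTS10, just inside it, and ADAMTS14 and ADAMTS19, just outside. ADAMTS10 had 13 and 9 counts in everolimus-resistant, 8 and 6 in ridaforolimus-resistant and 10 and 7 in parental libraries. ADAMTS14, a procollagen N-proteinase, had 3 and 2, 7 and 4, and 12 and 3 counts in the same order of lines. ADAMTS19 had 1 and 10, 2 and 1, and 3 and 3 counts, and MMP23B, the other member with more than 5 counts, had 4 and 2, 6 and 3, and 1 and 0.

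Per length of exon (RPKM, mean of the 6 libraries), TIMP1 was the most abundant member at 115, followed by MMP14 at 94.6 and TIMP2 at 40.3. The first 2 traded places in ridaforolimus library 1, with 100 RPKM for MMP14 and 79.2 RPKM for TIMP1, and TIMP1 was above MMP14 in the other 5 libraries. All other members were far below, led by ADAMTS15 at 6.04, ADAMTS12 at 5.47, TIMP4 at 4.74, MMP24 at 4.28, ADAMTS6 at 3.16, ADAMTS7 at 2.82 and MMP15 at 1.86 RPKM. The lowest member past the floor, ADAMTS10, had 0.112 RPKM. Among the MMPs, MMP14 alone held 84.6% and 90.3% of the family's CPM in everolimus-resistant, 89.2% and 89.4% in ridaforolimus-resistant and 88.2% and 87.4% in parental libraries.

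**Figure D1:**
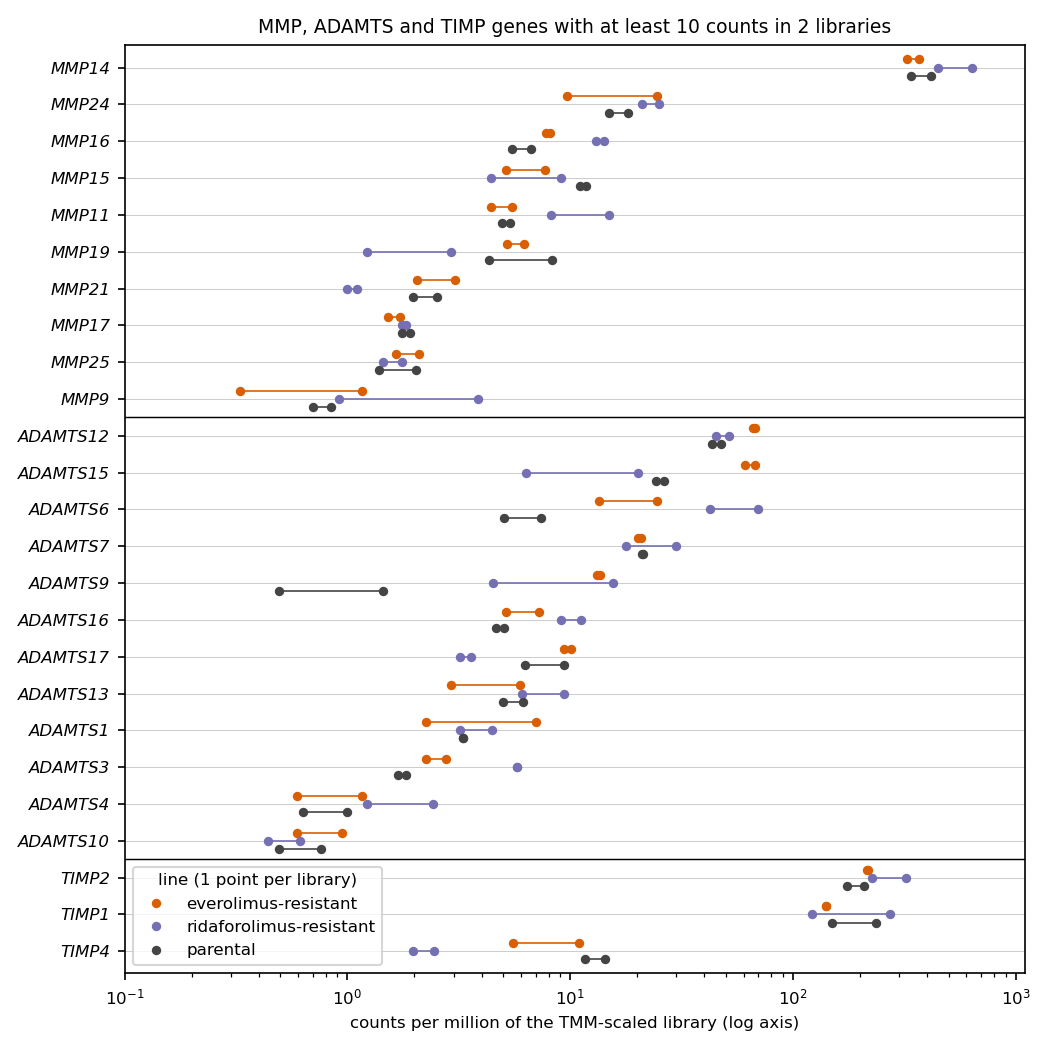
Level of the 25 members with at least 10 counts in 2 libraries, in CPM of the TMM-scaled library on a log axis, with 1 point per library and a line joining the libraries of a line of cells. MMP14, TIMP1 and TIMP2 stand above 100 CPM in every library, and ADAMTS6, ADAMTS9, ADAMTS15 and TIMP4 show the widest gaps between lines of cells.

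MMP14, the membrane-type collagenase that cleaves fibrillar collagen and activates pro-MMP2, lies at chr14:22836557-22849027 on the plus strand. It had 326 and 369 CPM in everolimus-resistant, 448 and 635 CPM in ridaforolimus-resistant and 417 and 339 CPM in parental libraries. Both ridaforolimus libraries were above the other 4, and the everolimus and parental libraries overlapped. The log2 fold change was 0.52 ± 0.23 (SE) for ridaforolimus-resistant over parental cells (edgeR's quasi-likelihood test, adjusted p = 0.360) and -0.12 ± 0.23 for everolimus-resistant over parental cells (adjusted p = 0.92).

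The other transmembrane members were MMP15, MMP16 and MMP24, while MMP17 and MMP25 are anchored by a lipid. MMP16 had 8.11 and 7.8 CPM in everolimus-resistant, 13 and 14.2 CPM in ridaforolimus-resistant and 5.5 and 6.69 CPM in parental libraries, 3 ranges with no overlap. The log2 fold change of ridaforolimus-resistant over parental cells was 1.16 ± 0.25, with an adjusted p of 0.115 in edgeR's test and of 0.0154 in DESeq2. MMP15 ran the other way in both resistant lines, with 7.68 and 5.16 CPM in everolimus-resistant, 4.42 and 9.06 CPM in ridaforolimus-resistant and 11.8 and 11.1 CPM in parental libraries. Its log2 fold changes over parental cells were -0.84 ± 0.38 in the everolimus-resistant and -0.76 ± 0.38 in the ridaforolimus-resistant line. Neither passed edgeR's test (adjusted p = 0.578 and 0.398). MMP24 had 24.6 and 9.72, 21.1 and 25.1, and 18.1 and 14.9 CPM in the same order, so the everolimus libraries spanned most of the others. Reads of MMP24 are uncertain, since the opposite-strand gene MMP24OS covers 18.1% of its exon bases and the strand setting of the counting is not given in the sources used here. MMP17 stayed between 1.52 and 1.91 CPM and MMP25 between 1.38 and 2.1 CPM in all 6 libraries. Reads of MMP25 are uncertain in the same way as those of MMP24. The opposite-strand MMP25-AS1 covers 35.2% of its exon bases and had 96 to 192 counts, beside 18 to 29 for MMP25.

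Among the secreted MMPs, MMP11 (stromelysin-3), which is activated inside the cell by furin, had 4.42 and 5.49 CPM in everolimus-resistant, 8.23 and 15 CPM in ridaforolimus-resistant and 5.35 and 4.93 CPM in parental libraries. The ridaforolimus libraries were the highest, with a log2 fold change over parental cells of 1.18 ± 0.35 (adjusted p = 0.203). MMP19, a protease of basement membrane proteins, had 6.23 and 5.22 CPM in everolimus-resistant, 1.22 and 2.92 CPM in ridaforolimus-resistant and 8.25 and 4.3 CPM in parental libraries. MMP21, known from left-right patterning of the embryo, had 3.04 and 2.05, 0.991 and 1.1, and 2.52 and 1.97 CPM in the same order. Both were lowest in the ridaforolimus libraries, with log2 fold changes over parental cells of -1.59 ± 0.48 for MMP19 and -1.10 ± 0.41 for MMP21 and adjusted p-values of 0.215 and 0.290. MMP9, gelatinase B, was low throughout, with 1.16 and 0.331 CPM in everolimus-resistant, 0.915 and 3.87 CPM in ridaforolimus-resistant and 0.84 and 0.704 CPM in parental libraries. Reads of MMP19 and MMP9 are uncertain in the way of MMP24. The opposite-strand TMEM198B covers 17.4% of the exon bases of MMP19 and had 159 to 268 counts, beside 16 to 108 for MMP19. SLC12A5-AS1 covers 18.4% of those of MMP9 and had 0 to 7 counts.

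Summed over the ADAMTS family, the resistant lines were above the parental line. The 19 genes together had 204 and 224 CPM in everolimus-resistant libraries, 180 and 191 CPM in ridaforolimus-resistant libraries and 124 and 127 CPM in parental libraries. The means were 214 ± 13.6, 185 ± 7.95 and 125 ± 2.39 CPM (SD, n = 2 each), so the lines differed by more than their spread, without a test. By mean CPM, ADAMTS12 and ADAMTS15 were the largest parts of the everolimus-resistant sum and ADAMTS6 and ADAMTS12 those of the ridaforolimus-resistant sum. ADAMTS3, ADAMTS6, ADAMTS9 and ADAMTS16 were above both parental libraries in every library of both resistant lines. Such gaps were common. Over all genes tested, 41.1% did not overlap, in either direction, between everolimus-resistant and parental libraries, and 49.4% between ridaforolimus-resistant and parental libraries. Both shares rest on the same parental libraries, and the share of genes above them in both lines was not counted.

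**Figure D2:**
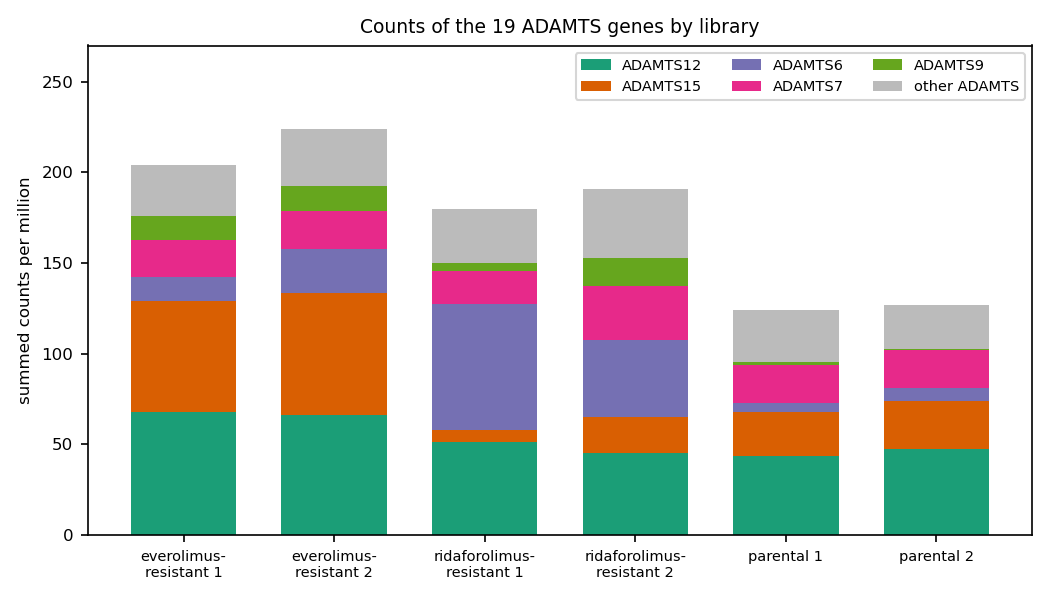
Summed CPM of the 19 ADAMTS genes in each library, stacked by gene, with the 5 most abundant shown in colour and the others in grey. ADAMTS15 fills 61.1 and 67.4 CPM of the everolimus-resistant bars, and ADAMTS6 fills 69.9 and 42.3 CPM of the ridaforolimus-resistant bars, against 5.04 and 7.4 CPM in the parental bars.

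ADAMTS6, a protease related to ADAMTS10 and known for its part in heart development in mice, lies at chr5:65148736-65481920 on the minus strand (ENSG00000049192), and its promoter window with the cAMP response element is printed above. It had 13.5 and 24.5 CPM in everolimus-resistant, 69.9 and 42.3 CPM in ridaforolimus-resistant and 5.04 and 7.4 CPM in parental libraries. The 3 lines did not overlap. ADAMTS6 rose in ridaforolimus-resistant cells over parental cells by a log2 fold change of 3.17 ± 0.39 (95% interval 2.27 to 4.06), 8.99-fold, with an adjusted p of 0.0211 in edgeR's quasi-likelihood test. The adjusted p was 9.13e-12 in DESeq2 and 0.0304 in limma-voom. Without parental library 1 or 2 the adjusted p of edgeR's test was 0.260 and 0.214, and without ridaforolimus library 1 or 2 it was 0.0541 and 0.0506, with log2 fold changes between 2.75 and 3.49. The everolimus-resistant line was between, at a log2 fold change over parental cells of 1.61 ± 0.38 (adjusted p = 0.335 in edgeR, 0.0156 in DESeq2).

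ADAMTS9, which cleaves versican and is made by many tissues of the embryo, lies at chr3:64515654-64688000 on the minus strand. It had 13.2 and 13.6 CPM in everolimus-resistant, 4.5 and 15.5 CPM in ridaforolimus-resistant and 1.45 and 0.493 CPM in parental libraries. All 4 resistant libraries were above both parental libraries, and the 2 ridaforolimus libraries differed widely. The parental libraries had only 19 and 7 counts of ADAMTS9, and the filter kept it on the strength of the resistant libraries. Its log2 fold change was the highest of all 21223 genes tested in everolimus-resistant over parental cells, a rank that only describes the genes kept. This fold change was 3.79 ± 0.67 (95% interval 2.25 to 5.33), yet its adjusted p was 0.205 in edgeR's test and 3.32e-06 in DESeq2. For ridaforolimus-resistant over parental cells it was 3.37 ± 0.67, with an adjusted p of 0.0918 in edgeR and 2.76e-05 in DESeq2. Leaving out each library in turn, this fold change ranged from 2.22 without ridaforolimus library 2 to 4.31 without parental library 1. The adjusted p of edgeR's test was 0.0322 without ridaforolimus library 1 and between 0.0637 and 0.528 without any other.

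A transcript on the opposite strand had its lowest counts in the parental libraries, like ADAMTS9. ADAMTS9-AS2, which begins 3.09 kb from the start of ADAMTS9 and shares no exon base with it, had 20 and 14 counts in everolimus-resistant, 10 and 49 in ridaforolimus-resistant and 1 and 3 in parental libraries. Its log2 fold change over parental cells was 2.94 ± 0.98 in the everolimus-resistant line (adjusted p = 0.507) and 3.82 ± 0.94 in the ridaforolimus-resistant line (adjusted p = 0.146). ADAMTS9-AS1, with 174 shared exon bases, had 12 and 14, 5 and 8, and 1 and 2 counts. Whether reads of these genes and of ADAMTS9 were told apart depends on the strand setting, and its part was not tested.

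ADAMTS15, another versican- and aggrecan-cleaving member, lies at chr11:130448974-130476641 on the plus strand and divided the resistant lines. It had 61.1 and 67.4 CPM in everolimus-resistant, 6.33 and 20.1 CPM in ridaforolimus-resistant and 24.3 and 26.4 CPM in parental libraries. The everolimus libraries were the highest and the ridaforolimus libraries the lowest, with no overlap. The log2 fold change of ridaforolimus-resistant over everolimus-resistant cells was -2.28 ± 0.45 (95% interval -3.30 to -1.25), with an adjusted p of 0.0709 in edgeR's test and of 7.21e-05 in DESeq2. Against parental cells it was 1.34 ± 0.43 in the everolimus-resistant line (adjusted p = 0.496) and -0.94 ± 0.44 in the ridaforolimus-resistant line (adjusted p = 0.370). These sizes differed with the ridaforolimus library left out: over everolimus-resistant cells the log2 fold change was -1.68 without ridaforolimus library 1 and -3.33 without library 2, with adjusted p-values of 0.0527 and 0.0346 in edgeR. Over parental cells it was -0.35 and -1.99 (adjusted p = 0.504 and 0.0667).

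The remaining proteoglycan-cleaving members were low. ADAMTS1 had 2.25 and 7.01 CPM in everolimus-resistant, 3.2 and 4.46 CPM in ridaforolimus-resistant and 3.29 and 3.31 CPM in parental libraries, and ADAMTS4 lay between 0.595 and 2.41 CPM in all libraries. The 2 members that cleave cartilage oligomeric matrix protein, ADAMTS7 and ADAMTS12, were more abundant. ADAMTS12 had 67.8 and 66 CPM in everolimus-resistant, 51.4 and 45 CPM in ridaforolimus-resistant and 43.4 and 47.4 CPM in parental libraries, with a log2 fold change of 0.56 ± 0.18 in everolimus-resistant over parental cells (adjusted p = 0.496). ADAMTS7 had 20.1 and 20.8, 17.8 and 29.8, and 21.3 and 21.1 CPM in the same order. Its value is uncertain, because near-identical pseudogenes exist, among them ADAMTS7P3 with 28 to 88 counts per library.

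ADAMTS3, which removes the N-propeptide of procollagens and processes the growth factor VEGFC, lies at chr4:72280969-72569386 on the minus strand. It had 2.25 and 2.78 CPM in everolimus-resistant, 5.79 and 5.77 CPM in ridaforolimus-resistant and 1.83 and 1.69 CPM in parental libraries. The 3 lines did not overlap, and ridaforolimus-resistant cells exceeded parental cells by a log2 fold change of 1.71 ± 0.33 (adjusted p = 0.0814 in edgeR, 0.0096 in DESeq2). Leaving out a library gave an adjusted p in edgeR of 0.0495 without everolimus library 1 and of 0.0563 to 0.558 without any other, at 1.65 to 1.76. The other enzymes of this group, ADAMTS2 and ADAMTS14, were under the floor.

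ADAMTS16, reported to cleave fibronectin, had 5.14 and 7.21 CPM in everolimus-resistant, 9.07 and 11.2 CPM in ridaforolimus-resistant and 5.04 and 4.65 CPM in parental libraries. ADAMTS17, mutated in a Weill-Marchesani-like syndrome, had 10.1 and 9.39 CPM, 3.2 and 3.58 CPM, and 9.4 and 6.27 CPM in the same order. The ridaforolimus-resistant line was thus highest for ADAMTS16 and lowest for ADAMTS17. Log2 fold changes of ridaforolimus-resistant over parental cells were 1.06 ± 0.30 for ADAMTS16 and -1.20 ± 0.31 for ADAMTS17, with adjusted p-values of 0.184 and 0.159. Over everolimus-resistant cells the log2 fold change of ADAMTS17 was -1.52 ± 0.31, with an adjusted p of 0.0769 in edgeR and of 0.00393 in DESeq2. ADAMTS13, the protease of von Willebrand factor, had 5.94 and 2.91 CPM in everolimus-resistant, 6.1 and 9.35 CPM in ridaforolimus-resistant and 4.97 and 6.13 CPM in parental libraries.

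Among the inhibitors, TIMP4 stood apart. TIMP4, the TIMP best known from heart and adipose tissue, lies at chr3:12153051-12159351 on the minus strand inside the gene SYN2. It had 10.9 and 5.55 CPM in everolimus-resistant, 2.44 and 1.97 CPM in ridaforolimus-resistant and 14.4 and 11.6 CPM in parental libraries, with no overlap between the lines. Ridaforolimus-resistant over parental cells gave a log2 fold change of -2.56 ± 0.39 (95% interval -3.46 to -1.66), 5.89-fold lower, with an adjusted p of 0.0505 in edgeR's test, just outside the threshold, and of 2.39e-06 in DESeq2. Without everolimus library 1 or 2 in the fit, edgeR's adjusted p was 0.00968 and 0.011 at the same fold change, and without each of the other 4 libraries it was between 0.0851 and 0.318, at -2.73 to -2.40. Over everolimus-resistant cells it was -1.90 ± 0.39 (adjusted p = 0.0792 in edgeR, 0.00173 in DESeq2), with -1.34 without everolimus library 1 (adjusted p = 0.138 in edgeR) and -2.31 without everolimus library 2 (adjusted p = 0.0378 in edgeR).

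SYN2, which encodes a synaptic vesicle protein on the opposite strand and shares 170 exon bases with TIMP4 (10.3% of its exons), had 37 and 22 counts in everolimus-resistant, 4 and 11 in ridaforolimus-resistant and 28 and 45 in parental libraries. Its log2 fold change for ridaforolimus-resistant over parental cells was -2.24 ± 0.57 (adjusted p = 0.157). It was lowest in the same libraries as TIMP4, and the part of shared reads was not tested.

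For TIMP1, the libraries of the ridaforolimus-resistant and of the parental line lay far apart. TIMP1, which inhibits most secreted MMPs, had 141 and 140 CPM in everolimus-resistant, 122 and 272 CPM in ridaforolimus-resistant and 235 and 149 CPM in parental libraries. Its log2 fold change was -0.45 ± 0.37 in everolimus-resistant over parental cells (adjusted p = 0.770) and 0.04 ± 0.37 in ridaforolimus-resistant over parental cells (adjusted p = 0.976, 95% interval -0.81 to 0.88). TIMP2, which both inhibits MMP14 and assists it in activating pro-MMP2, had 218 and 214, 227 and 320, and 208 and 174 CPM in the same order of lines. Both resistant lines were above the parental line for TIMP2, with log2 fold changes of 0.18 ± 0.22 in the everolimus-resistant and 0.52 ± 0.22 in the ridaforolimus-resistant line (adjusted p = 0.862 and 0.341).

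The balance of the families can be read as the ratio of summed CPM of all MMPs to that of all TIMPs, which does not take length into account. This ratio was 1.04 and 1.13 in everolimus-resistant, 1.43 and 1.2 in ridaforolimus-resistant and 1.03 and 1.16 in parental libraries. The ridaforolimus libraries were the highest, by a margin smaller than the gap between them. Per length (summed RPKM) the ratio was under 1 in every library, with 0.633 and 0.687 in everolimus-resistant, 0.918 and 0.674 in ridaforolimus-resistant and 0.536 and 0.645 in parental libraries. On that scale ridaforolimus library 2 lay between the everolimus libraries, so the order of the lines depends on the scale. TIMP1 made up 38% and 39% of TIMP counts in everolimus-resistant, 34.7% and 45.8% in ridaforolimus-resistant and 51.3% and 44.5% in parental libraries.

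In everolimus-resistant over parental cells, 0 of the 24 tested members passed edgeR's test, 0 passed limma-voom and 2 passed DESeq2 (ADAMTS6 and ADAMTS9). Over all 21223 genes tested, 0.00471% passed edgeR's test, which is 1 gene, and 0.00471% passed limma-voom. DESeq2 gave an adjusted p to 17519 of them, and 0.856% of these passed. At an unadjusted p under 0.05, 4 members were called, all higher (ADAMTS6, ADAMTS9, ADAMTS12 and ADAMTS15), against 8.79% of all genes in either direction, 4.26% higher and 4.53% lower. Groups did not overlap for 13 members, against 41.1% of all genes. The log2 fold change exceeded 1 in size for 3 members, all higher, which is 12.5% of them beside 7.38% of all genes. The median log2 fold change was 0.49 over 11 ADAMTS genes, of which 9 were above 0, and -0.06 over 10 MMP genes, beside 0.02 over all genes.

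In ridaforolimus-resistant over parental cells, 1 of the 24 members passed edgeR's test (ADAMTS6), against 0.32% of all genes, and it was the same gene in limma-voom, against 0.339%. DESeq2 called 5 (ADAMTS3, ADAMTS6, ADAMTS9, MMP16 and TIMP4), against 3% of the 19165 genes to which it gave an adjusted p. At an unadjusted p under 0.05, 11 members were called, 7 higher and 4 lower, against 14.5% of all genes in either direction, 7.35% higher and 7.17% lower. Groups did not overlap for 17 members, against 49.4% of all genes. The log2 fold change exceeded 1 in size for 12 members, 8 higher and 4 lower, which is 50% of them beside 10.6% of all genes. The filter keeps a gene on the strength of the libraries in which it is high, so the shares in all 3 comparisons only describe the members that passed. Both comparisons used the same parental libraries.

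In ridaforolimus-resistant over everolimus-resistant cells, 0 of 24 members passed edgeR's test and 0 passed limma-voom, against 0.744% and 0.532% of all genes. DESeq2 called 4 (ADAMTS6, ADAMTS15, ADAMTS17 and TIMP4), against 3.29% of the 19988 genes to which it gave an adjusted p. At an unadjusted p under 0.05, 12 members were called, 6 in each direction, against 14.1% of all genes in either direction, 7.58% higher and 6.56% lower. Groups did not overlap for 16 members, against 41.2% of all genes. The log2 fold change exceeded 1 in size for 5 members higher and 5 lower, which is 41.7% of them beside 10.4% of all genes. ADAMTS6 was 2.95-fold higher in the ridaforolimus-resistant line (log2 fold change 1.56 ± 0.36, adjusted p = 0.107 in edgeR), and ADAMTS3 was 2.3-fold higher (1.20 ± 0.32, adjusted p = 0.149). ADAMTS9 did not separate the resistant lines, at -0.42 ± 0.55 (95% interval -1.68 to 0.84). The drugs and doses of these lines differ together, so no dose-matched comparison of the compounds was possible.

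**Figure D3:**
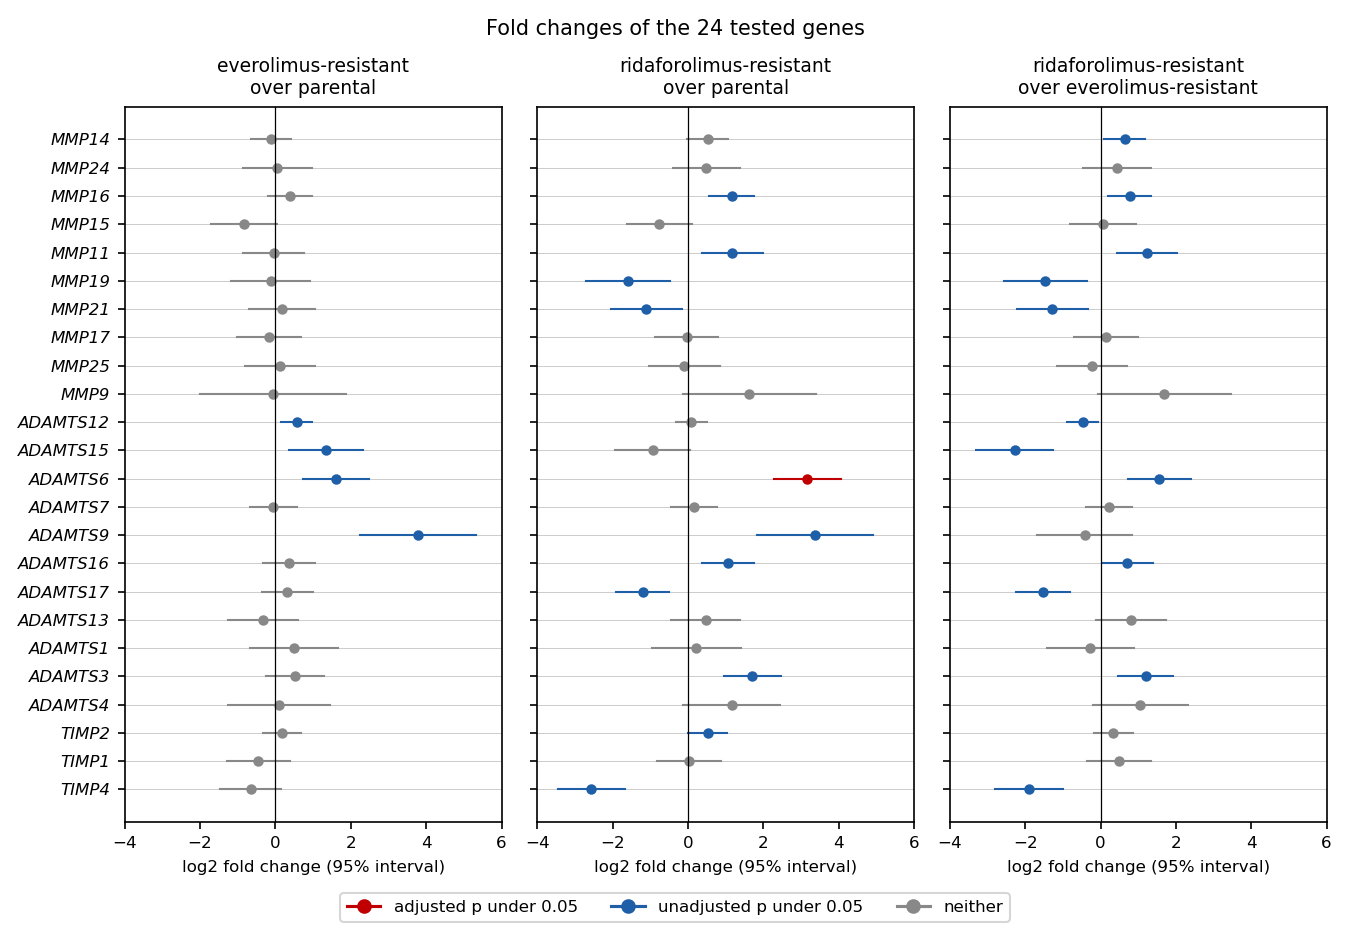
Log2 fold changes with 95% intervals from edgeR for the 24 tested members in the 3 comparisons, coloured by the p of the quasi-likelihood test. ADAMTS6 in ridaforolimus-resistant over parental cells, at 3.17, is the only red point, and the blue points are those with an unadjusted p under 0.05.

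Genes around the members with the largest differences were compared within 1 Mb of the start where they averaged 1 CPM or more. The 12 neighbours of ADAMTS6 had log2 fold changes of -0.62 to 0.16 in ridaforolimus-resistant over parental cells. None came near its 3.17, and 0 had an unadjusted p under 0.05. The 14 neighbours of ADAMTS9 ranged from -0.24 to 2.94 in everolimus-resistant over parental cells, with a median of 0.25 and ADAMTS9-AS2 as the highest. There 1 of them, ADAMTS9-AS2, had an unadjusted p under 0.05, beside 8.79% of all genes. In ridaforolimus-resistant over parental cells they ranged from -0.34 to 3.82 with a median of 0.50. Of these 14, 3 had an unadjusted p under 0.05, beside 14.5% of all genes: ADAMTS9-AS2 (3.82), PRICKLE2-AS1 (1.36) and PRICKLE2 (1.16). Around TIMP4, 19 neighbours ranged from -2.24 to 0.61 in ridaforolimus-resistant over parental cells, with a median of -0.23 and SYN2 as the lowest. Of these, 3 had an unadjusted p under 0.05 (SYN2, PPARG and ENSG00000285906), beside the same 14.5%. Over everolimus-resistant cells 1 of the 19 was above 0, and 4 had an unadjusted p under 0.05, beside 14.1% of all genes. The 3 neighbours of ADAMTS3 lay between -0.07 and 0.39 in ridaforolimus-resistant over parental cells, and 0 had an unadjusted p under 0.05. The 11 neighbours of ADAMTS15 ranged from -1.0 to 0.11 in ridaforolimus-resistant over everolimus-resistant cells, where ADAMTS15 was at -2.28. Of them, 9 were below 0, beside 10963 of all 21223 genes. An unadjusted p under 0.05 was found for 4, beside 14.1% of all genes: DDX18P5 (-1.0), ZBTB44 (-0.73), SNX19 (-0.66) and NFRKB (-0.62). In everolimus-resistant over parental cells 10 of the 11 were above 0, beside 11110 of all 21223 genes, and they ranged from -0.42 to 0.88. The same 4 genes had an unadjusted p under 0.05, beside 8.79% of all genes. None of these neighbours passed the adjusted test.

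**Figure D4:**
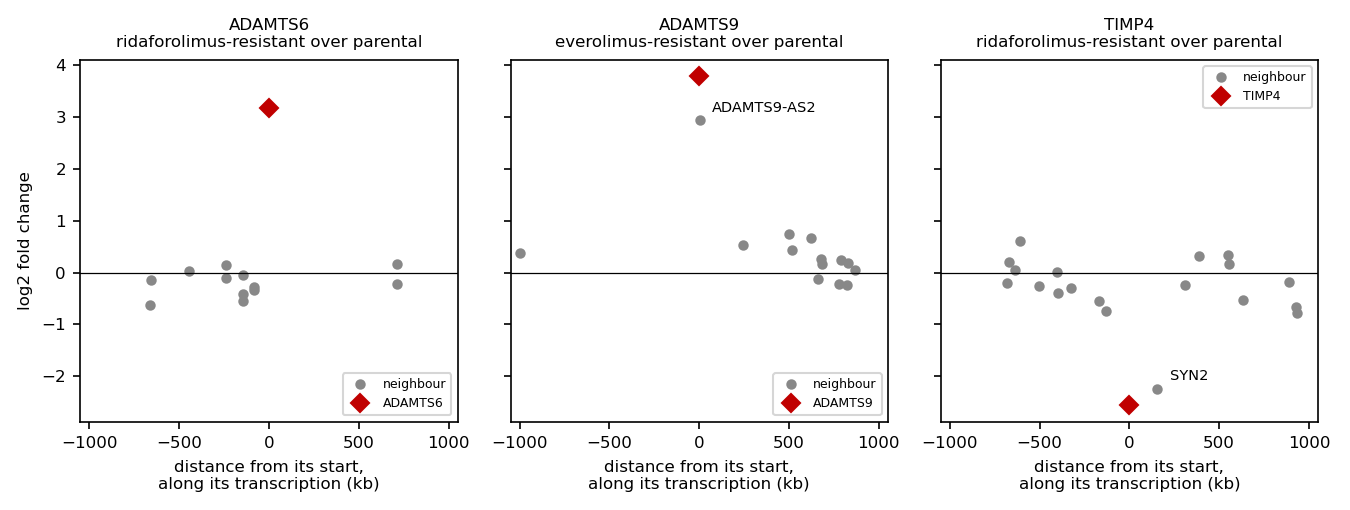
Log2 fold change of ADAMTS6, ADAMTS9 and TIMP4 (diamonds) and of genes within 1 Mb (circles) against distance from the member's start in kb, positive along its direction of transcription. The neighbours of ADAMTS6 lie between -0.62 and 0.16, whereas ADAMTS9-AS2 at 2.94 and SYN2 at -2.24 lie near ADAMTS9 and TIMP4.

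Genes that work with these families were counted on 7 lists, and 0 of their 53 tested genes passed edgeR's test in any comparison. In everolimus-resistant over parental cells, 4 genes had an unadjusted p under 0.05 (1 higher, 3 lower), beside 8.79% of all genes, and 0 passed DESeq2 or limma-voom. In ridaforolimus-resistant over parental cells, 12 had an unadjusted p under 0.05 (8 higher, 4 lower), beside 14.5% of all genes. DESeq2 called 4 of them (ADAMTSL1, ETS2, PCSK5 and THSD4), beside 3% of the genes to which it gave an adjusted p. With limma-voom it was 1 (THSD4), beside 0.339% of all genes. In ridaforolimus-resistant over everolimus-resistant cells 11 had an unadjusted p under 0.05 (6 higher, 5 lower), beside 14.1% of all genes. DESeq2 called 3 (ADAMTSL1, PCOLCE2 and PCSK7), beside 3.29% of the genes to which it gave an adjusted p, and limma-voom 0. The lists had 8 ADAM proteases, 6 ADAMTS-like genes and papilin, 5 proprotein convertases, 9 activators, inhibitors and clearance receptors, 6 matrix substrates, 15 AP-1, ETS and RUNX factors and 4 astacin and BMP1 genes among the tested genes. The ADAMTS-like THSD4, a protein of fibrillin microfibrils, had 117 and 66.7 CPM in everolimus-resistant, 51.8 and 52.5 CPM in ridaforolimus-resistant and 202 and 164 CPM in parental libraries. Its log2 fold change was -1.81 ± 0.28 in ridaforolimus-resistant over parental cells (adjusted p = 0.0517 in edgeR, 2.99e-06 in DESeq2). ADAMTSL1 had 11.7 and 22.5 CPM in everolimus-resistant, 40.2 and 57.9 CPM in ridaforolimus-resistant and 17.6 and 17.3 CPM in parental libraries, a log2 fold change of 1.49 ± 0.33 in ridaforolimus-resistant over parental cells (adjusted p = 0.115).

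Among the transcription factors that bind MMP promoters, ETS2 had 41 and 44.6 CPM in everolimus-resistant, 31.6 and 26.1 CPM in ridaforolimus-resistant and 76.9 and 64.1 CPM in parental libraries. Both resistant lines were below the parental line, with a log2 fold change of -1.29 ± 0.20 in the ridaforolimus-resistant line (adjusted p = 0.0524). FOSL1, an AP-1 subunit, was above the parental 165 and 186 CPM in 3 of 4 resistant libraries, with 179 and 399 CPM in everolimus-resistant and 335 and 291 CPM in ridaforolimus-resistant libraries. PCSK5, a convertase that removes propeptides, had 3.84 and 4.43, 6.25 and 10.7, and 2.29 and 2.47 CPM in the order everolimus-resistant, ridaforolimus-resistant and parental. Its log2 fold change in ridaforolimus-resistant over parental cells was 1.83 ± 0.36 (adjusted p = 0.0872), while the convertase PCSK7 was at -0.94 ± 0.20 in ridaforolimus-resistant over everolimus-resistant cells (adjusted p = 0.0818).

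The other genes with the lowest p of their lists were ADAM12 and ADAM19, PCOLCE2 and BMP1, FN1 and TNC, and LRP1 and TFPI2. PCOLCE2, an enhancer of procollagen C-proteinase, was at a log2 fold change of 1.88 ± 0.40 in ridaforolimus-resistant over everolimus-resistant cells (adjusted p = 0.0881), and BMP1, that proteinase, at -1.01 in ridaforolimus-resistant over parental cells (adjusted p = 0.234). Fibronectin (FN1) had 2827 and 2346 CPM in everolimus-resistant, 1204 and 5286 CPM in ridaforolimus-resistant and 1363 and 1081 CPM in parental libraries, so the 2 ridaforolimus libraries lay on both sides of the everolimus libraries. LRP1, an endocytic receptor that clears proteases and TIMPs, also differed widely between the ridaforolimus libraries, with 132 and 401 CPM in ridaforolimus-resistant libraries, beside 131 and 64.2 CPM in everolimus-resistant and 130 and 67.5 CPM in parental libraries. ADAM12, ADAM19, TNC and TFPI2 had log2 fold changes of 1.05, 0.66, 1.36 and 0.86, the first 3 in ridaforolimus-resistant over everolimus-resistant cells and TFPI2 in ridaforolimus-resistant over parental cells, with adjusted p-values of 0.225 to 0.394.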

How the data were processed

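The authors deposited a table of unnormalised counts, with a row for each Ensembl gene and a column for each library. Libraries were made with the TruSeq Stranded mRNA kit, per the labels' protocols. HTSeq 0.13.5, STAR 2.7.9a, Trim Galore 0.6.6 and DESeq2 were used per the submitters' processing notes, which state no roles. No source used here gives the strand setting or the annotation release, so counts of overlapping genes are uncertain. Symbols came from a symbol table (62625 IDs matched), and positions, gene types and exon lengths from GENCODE 29 (GRCh38).

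Here, edgeR 4.0.16 in R 4.3.3 was fitted to all 6 libraries and 3 groups: TMM, filterByExpr, quasi-likelihood test, two-sided, with Benjamini-Hochberg adjusted p under 0.05 over 21223 genes (3 residual degrees of freedom). CPM use TMM-scaled totals, and RPKM are CPM per kilobase of merged exons. Errors of log2 fold changes are standard errors from this fit. DESeq2 1.42.0 and limma 3.58.1 (voom) were alternatives, besides other scaling, filters, a replicate block and leaving out each library. The code of the fit was tried on simulated counts, with the same spread for every gene and large changes only in genes above 5 CPM. This does not show its power for lower genes or smaller changes at the spread of these libraries. The libraries of a line differed by more than sampling noise. Library values are given for members with an adjusted or unadjusted p under 0.05, a mean of at least 5 CPM, or a TIMP name, and for a few others. From each list of other genes, the 2 genes with the lowest p were named. The members and lists were chosen with earlier results of these data known.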

Additional observations from a re-analysis of the deposited data

How the results depend on the processing

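With 2 libraries per line, the number of genes called moved with the method more than the fold changes did. In everolimus-resistant over parental cells, 1 gene was called, against 493 without the low-count filter, 150 with DESeq2, 0 with only the 2 groups in the fit and 0 to 3 when a library was left out. In ridaforolimus-resistant over parental cells, 68 genes were called, against 1195, 574 and 127 under those settings and 1 to 276 with a library left out (1 without either parental library, 2 without ridaforolimus library 2, 276 and 236 without everolimus library 1 and 2). In ridaforolimus-resistant over everolimus-resistant cells, 158 were called, against 1362, 657, 0 and 19 to 123 (19 without ridaforolimus library 2, 48 and 46 without parental library 1 and 2). Members called were 0, 1 and 0 in these comparisons, against 3, 9 and 7 without the filter and 2, 5 and 4 with DESeq2. In ridaforolimus-resistant over parental cells, 2 members (ADAMTS6 and TIMP4) were called with RLE scaling, with a floor of 10 counts or with only the 2 groups. Leaving out a library gave 0, 0 to 3, and 0 to 1 members. The labels do not say that replicate numbers pair the libraries. Deviations from the group means of same-numbered libraries correlated at 0.329 between everolimus-resistant and parental cells, -0.167 between ridaforolimus-resistant and parental cells and -0.186 between the resistant lines. With a replicate block, 0, 28 and 49 genes and 0, 0 and 0 members were called, ADAMTS6 having an adjusted p of 0.058. With the ridaforolimus numbers crossed, added after the data had been seen, the block gave 150, 814 and 1044 genes and 2, 6 and 5 members. On raw totals, the parental ADAMTS sum was 122 CPM in place of 125. Fold changes were followed for TIMP1 and for the 14 members with an unadjusted p under 0.05 in any comparison. These 45 fold changes gave 630 values under the alternative settings. Of those values, 13 turned direction, in 8 fold changes of 0.49 or less. The 9 other tested members were not followed. Leaving out a library, everolimus-resistant over parental log2 fold changes spanned -0.22 to 0.10 for MMP11, -0.26 to 0.03 for MMP14, -0.53 to 0.41 for MMP19 and -0.12 to 0.43 for MMP21. Ridaforolimus-resistant over parental ones spanned -0.02 to 0.19 for ADAMTS12 and -0.64 to 0.50 for TIMP1, which was also -0.04 with voom and -0.01 with either block. Ridaforolimus-resistant over everolimus-resistant ones spanned -1.56 to 0.21 for ADAMTS9 and -0.19 to 0.95 for TIMP1. The cause was not tested. ADAMTS10 and the 21 members under the floor had too few counts for a test, and low depth was not told apart from absent expression.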

Other observations

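Genes that share the names of the families but are not protein-coding members had reads of their own. MMP25-AS1, antisense to MMP25 over 35.2% of its exon bases, had 157 and 152 counts in everolimus-resistant, 96 and 192 in ridaforolimus-resistant and 185 and 166 in parental libraries. MMP24OS, a small protein-coding gene opposite MMP24, had 748 and 968 counts in everolimus-resistant, 896 and 1180 in ridaforolimus-resistant and 1172 and 1224 in parental libraries. ADAMTS7P3, a pseudogene, had 88 and 28 counts in everolimus-resistant, 33 and 44 in ridaforolimus-resistant and 33 and 33 in parental libraries.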
